A study of Mus musculus with 16 samples.

Results

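The 34 genes described here encode the chains of the epithelial basement membrane and the receptors that bind it. They were taken by symbol from a fixed list and comprise 9 laminin chains, 7 chains of collagens IV and XVIII, 4 linkers and proteoglycans, 2 proteins of provisional matrix, dystroglycan, 6 integrin alpha chains and 5 integrin beta chains. All 34 were found among the 55487 genes of the deposited tables, and 29 had enough reads to be tested. Lama1, Lama2, Col4a6, Tnc and Itgb8 did not, and their levels are given below.

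A basement membrane is a sheet of 2 interlocking networks under an epithelium. Laminins, each a trimer of an alpha, a beta and a gamma chain, polymerise on the cell surface, and collagen IV trimers form a crosslinked mesh beside them, while nidogens, perlecan and agrin join the networks. Cells hold the sheet through integrins, which are pairs of an alpha and a beta chain, and through dystroglycan. In pancreatic ductal adenocarcinoma, tumor cells both make basement membrane and cross it when they spread.

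The RNA came from organoid lines of 6 C57BL6/J mice with pancreatic ductal adenocarcinoma. The labels name no driver allele. Mice 1 to 5 gave 1 tumor line each and mouse 6 gave 2 (T69a and T69b). That makes 7 tumor lines, and the 9 metastasis lines came from liver (mice 1 and 6), peritoneum (mice 2, 3 and 4), diaphragm (mice 5 and 6), lung (mouse 5) and ovary (mouse 6).

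All lines, tumor and metastasis alike, were grown in domes of pure Matrigel, a gel of basement membrane proteins from a mouse sarcoma, under a medium with EGF, FGF-10, Noggin, gastrin, R-spondin and A83-01, an inhibitor of TGF-beta receptors. The cells therefore sat in supplied laminin, collagen IV, nidogen and perlecan, and an inhibitor of the TGF-beta pathway, a known inducer of matrix genes, was present in every group. Lama1, the alpha chain of the main Matrigel laminin, had 5 counts over all tumor lines and 3 over all metastasis lines. The labels do not say whether lines of 1 mouse are separate cultures of separate lesions, and p values measure the spread between these lines.

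Total expected counts ran from 24624420 to 49965492 per library. Levels between lines are given as CPM, which are read counts scaled to library size, and levels between genes as TPM, which also allow for gene length. Reads of 3 genes linked to ribosomal RNA made up 72.7% of the mouse 5 diaphragm library and 29.9% of the mouse 2 tumor library, so the TPM of these libraries are low for all other genes. In tumor lines the epithelial markers summed to 4176 to 6332 CPM, in metastasis lines to 4383 to 8960 CPM, and 1 of 6, Krt7, passed the test by stage. The 8 fibroblast markers summed to 0.0385 to 0.230 CPM and 0.100 to 0.904 CPM, with Lum at 0 in all lines, the 5 endothelial markers to at most 0.412 and 1.71 CPM with Emcn at 0, the 4 smooth muscle markers to at most 0.556 and 1.16 CPM, and the 4 immune markers to at most 4.53 and 5.24 CPM. Mesothelial markers summed to 164 to 1134 CPM and 308 to 756 CPM, almost all of it Msln, which pancreatic cancer cells also make, while Wt1 reached at most 0.313 CPM. In bulk RNA, fewer cells of a type and less RNA per cell cannot be told apart.

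Metastasis lines were compared with tumor lines within mice, and a gene was called when its adjusted p was under 0.05. Of the 29 members tested, 2 were called higher in metastasis lines, namely Lama3 and Itga6, and 5 lower, namely Lama4, Lamc1, Hspg2, Agrn and Fn1. That is 24.1% of members, beside 16.5% of all 15573 genes tested. In the higher direction 6.59% of all genes were called and in the lower direction 9.92%, and 60.1% of all calls were lower (72.2% when log2(TPM + 1) was tested instead). The median log2 fold change of the members was 0.07, beside -0.02 for all genes.

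Among the 7 called members, T69a was the tumor line nearest to the metastasis side in 6, with the highest tumor level of Lama3 and Itga6 and the lowest of Lamc1, Hspg2, Agrn and Fn1. This was counted over called members only. Over the 29 members tested, the mouse 5 tumor line was the highest tumor line in 13 and T69a in 7. Without T69a, 4 of 31 members tested were higher and 6 lower, with Col18a1, Itgb5 and Tnc added. Calls over all genes also rose there, to 24.7%, from 16.5% with all lines. Without the 2 libraries richest in ribosomal RNA reads, 1 member was higher and 2 were lower, and 5.02% of all genes were called.

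**Figure D1:**
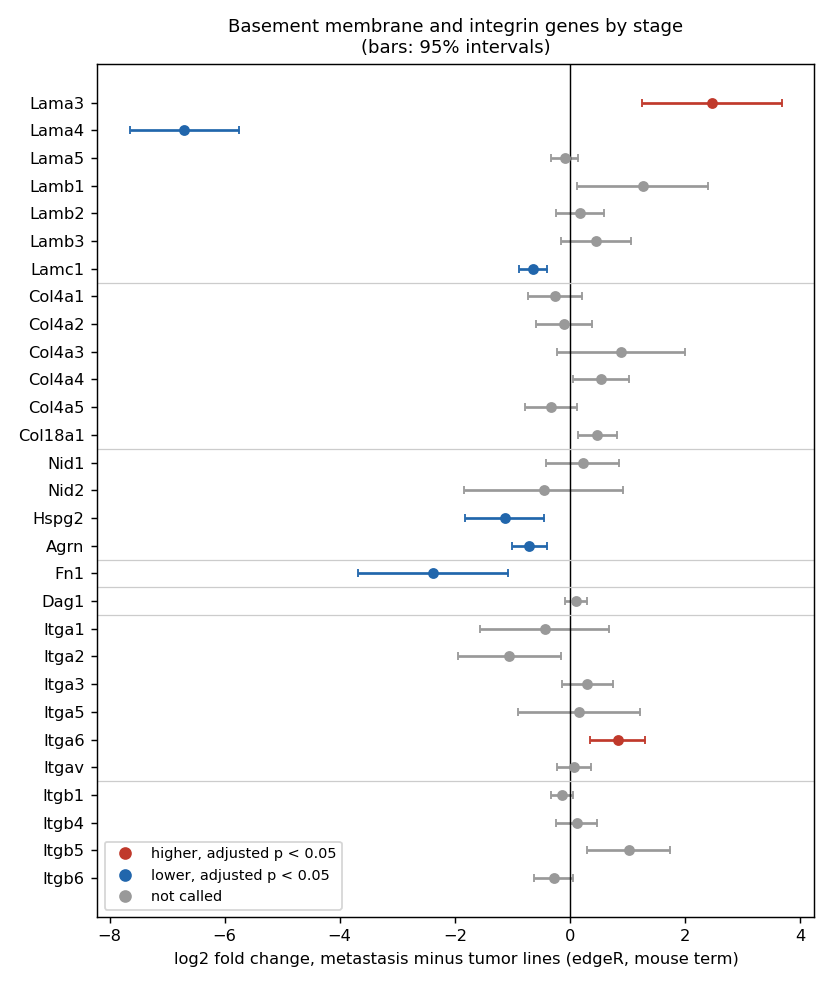
Log2 fold change of metastasis over tumor lines for the 29 members tested, grouped by role, with the mouse as a term in the edgeR fit. Points are estimates, bars are 95% intervals, and color marks the call at an adjusted p of 0.05. Lama4 lies far to the left at -6.70, while most integrin and collagen chains lie near 0.

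Among laminin chains, 7 of 9 were tested, 1 was higher and 2 were lower. By TPM the alpha chain of these cells was Lama5, the broadly expressed epithelial alpha chain, which took 94.8% to 98.7% of the alpha chain TPM in tumor lines. In metastasis lines its share ran from 72.9% to 98.9%. Its own level was 190, 233 and 343 CPM (lowest, median and highest tumor line) and 184, 247 and 274 CPM in metastasis lines, with a log2 difference of -0.09 (95% interval -0.32 to 0.14).

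Lama3 encodes the alpha chain that pairs with Lamb3 in the laminin of hemidesmosomes, the anchors of epithelia. Its level was 0.731, 1.11 and 3.02 CPM in the lowest, median and highest tumor line and 1.47, 6.20 and 51.7 CPM in metastasis lines. The groups overlapped only in mouse 6, where both tumor lines (3.02 and 1.88 CPM) lay above the ovary line at 1.47 CPM. Mouse 5 showed the widest gap, from 0.814 CPM in its tumor line to 51.7 and 41.1 CPM in its diaphragm and lung lines. Lama3 rose by 2.47 on the log2 scale (adjusted p = 0.0217, SE 0.62, edgeR), higher in 6 of 6 mice. It passed in 19 of 33 other settings (adjusted p 1.78e-05 to 0.0738). Leaving out any single line of mice 1 to 4 ended the call (adjusted p 0.0515 to 0.0601), and leaving out mouse 6 raised the log2 fold change to 3.63. Mice 1 to 4 had 1 line per stage, so leaving out either line or the mouse is nearly the same fit. Counts of settings, here and for other genes, therefore hold repeats and are not counts of separate checks. It did not pass when the 2 libraries richest in ribosomal RNA reads were left out, at a log2 fold change of 2.44.

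Lama4, an alpha chain best known from vessels, muscle and fat, was the one member whose groups did not overlap, with metastasis below tumor as in 0.758% of all genes tested. Tumor lines held 0.808, 1.43 and 8.85 CPM (lowest, median and highest), or 910 counts in all. Metastasis lines held 10 counts in all, 5 of the 9 lines had none, and the highest reached 0.131 CPM. With so few reads there, Lama4 passed the count filter through its tumor lines alone, and needed all of them. The lack of overlap came with that filter and is not separate support. The fitted log2 fold change was -6.70 (adjusted p = 3.43e-05, SE 0.48), lower in 6 of 6 mice, and it passed in 32 of 32 other settings. The gene lies at chr10:38965515-39110188 on the plus strand. Fibroblast, endothelial and smooth muscle markers summed to at most 0.230, 0.412 and 0.556 CPM in tumor lines. Fat cell markers were not examined, and the source of the Lama4 reads was not tested.

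Lamc1, the gamma chain shared by most laminins, had the highest mean TPM of the laminin chains listed here, at 26.7 over the 16 lines. Its level was 148, 208 and 233 CPM in the lowest, median and highest tumor line and 103, 125 and 181 CPM in metastasis lines. The groups overlapped because T69a was at 148 CPM and the mouse 5 diaphragm line at 181 CPM, while the other tumor lines were at or above 190 CPM and the other metastasis lines at or below 144 CPM. Lamc1 fell by 0.65 on the log2 scale (adjusted p = 0.00682, SE 0.12, edgeR), lower in 6 of 6 mice, and passed in 33 of 33 other settings. It lies at chr1:153218922-153332786 on the minus strand.

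**Figure D2:**
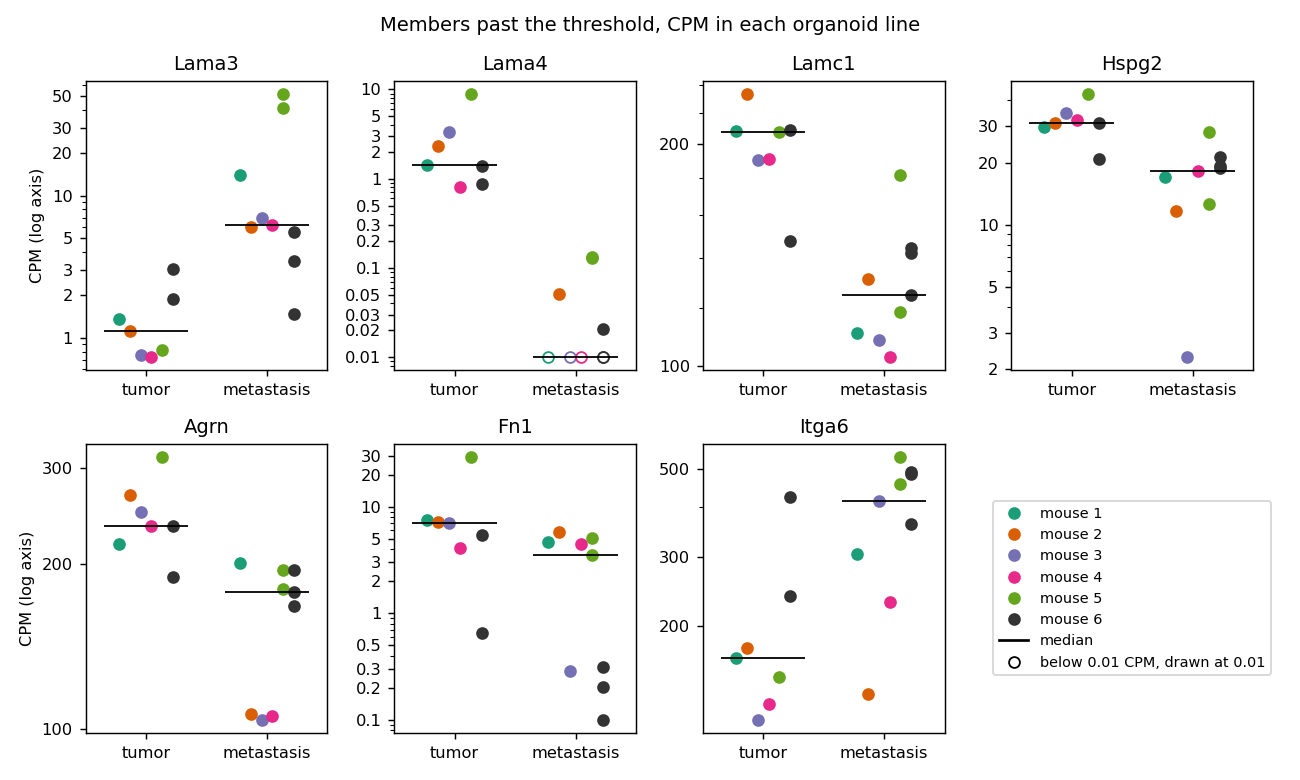
CPM on log axes in each of the 16 organoid lines for the 7 members that passed the test by stage. Points are lines colored by mouse, bars are medians, and open points lie below 0.01 CPM. Lama4 is the panel with no overlap, and the tumor line of mouse 6 at 424 CPM of Itga6 and 0.647 CPM of Fn1 is T69a.

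No beta chain passed the test. Lamb3, the beta chain of the hemidesmosome laminin, had a log2 fold change of 0.45 (adjusted p = 0.334, SE 0.31), Lamb2 of 0.17 (adjusted p = 0.615, SE 0.21) and Lamb1 of 1.26 (adjusted p = 0.148, SE 0.58). At an unadjusted p under 0.05 Lamb1 was the one of 3, and it passed with ribosomal RNA share as a covariate (log2 fold change 1.74, adjusted p = 0.0493). Lamb1, the common embryonic and vascular beta chain, varied more among metastasis lines than among tumor lines. The lowest, median and highest tumor line held 11.2, 12.4 and 42.2 CPM, and metastasis lines 10.2, 42.7 and 164 CPM. Its share of the beta chain TPM was 6.75% to 19.5% in tumor lines and 3.09% to 61.9% in metastasis lines, highest in the peritoneal lines of mouse 4 (61.9%) and mouse 2 (50.3%). The third peritoneal line, of mouse 3, was at 7.39%. The mouse 4 peritoneal line, highest in this share, was also the lowest line for Lamb3, at 18.3 CPM.

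**Figure D3:**
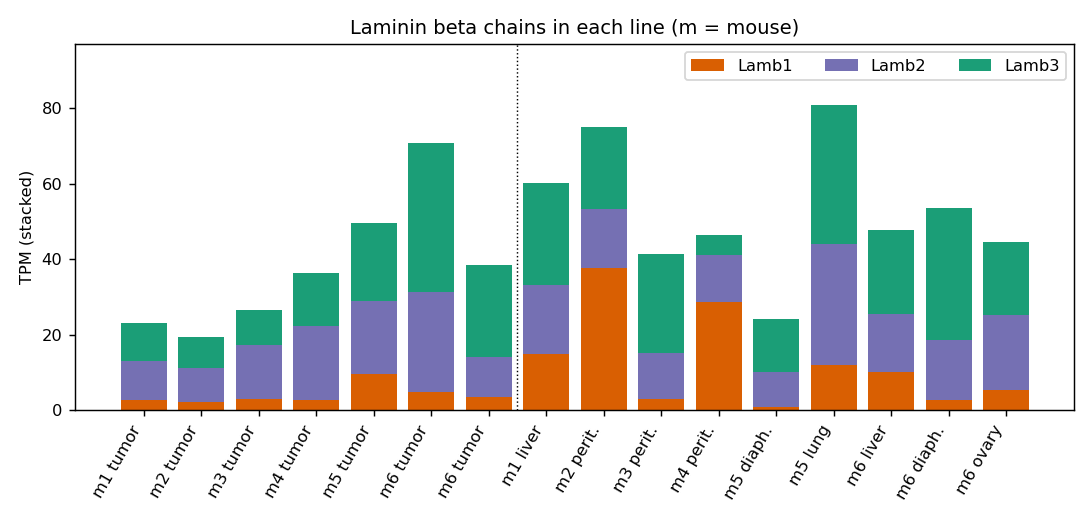
TPM of the laminin beta chains Lamb1, Lamb2 and Lamb3, stacked, in each of the 16 lines, with tumor lines left of the dotted line. Lamb1 makes up 37.7 TPM in the peritoneal line of mouse 2 and 0.75 TPM in the diaphragm line of mouse 5, whose TPM are low throughout.

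Lama1 and Lama2, an alpha chain of embryonic membranes and one of muscle and nerve, stayed at or below 0.129 and 0.101 CPM in every line. Lamb3 lay above Lama3 in TPM in every line, and Lama3 reached at most 10.0 TPM.

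Of the 7 collagen chains, 6 were tested and none was called by edgeR. DESeq2 called Col18a1 alone among them, and at an unadjusted edgeR p under 0.05 it was also the one chain. Col18a1 encodes the collagen whose end fragment is endostatin and had the highest mean TPM of the group, 43.1 over the 16 lines. It was at 81.4, 109 and 275 CPM in the lowest, median and highest tumor line and at 113, 191 and 289 CPM in metastasis lines. The highest tumor value belonged to T69a, and the next was 141 CPM in mouse 5. The log2 fold change was 0.48 (adjusted p = 0.0785, SE 0.17), higher in 6 of 6 mice, and 0.64 without T69a (adjusted p = 0.0113, in a range of 0.0113 to 0.418 over the other settings).

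Col4a1 and Col4a2 encode the chains of the ubiquitous collagen IV trimer, which holds 2 alpha 1 chains for each alpha 2 chain. Their genes lie back to back on chromosome 8, read in opposite directions, and share 22 bases at their starts (Col4a1 at chr8:11198423-11312826 on the minus strand, Col4a2 at chr8:11312805-11449287 on the plus strand). The RefSeq windows from 250 bases before to 50 bases after each start (build GRCm38.p6) are shown because both genes are read from this stretch. They are chr8:11312777-11313076 on the minus strand for Col4a1 and chr8:11312555-11312854 on the plus strand for Col4a2, and 78 bases are common to both. Capitals mark GGGCGG, a GC box letter run, and CCAAT, each on either strand.
Col4a1: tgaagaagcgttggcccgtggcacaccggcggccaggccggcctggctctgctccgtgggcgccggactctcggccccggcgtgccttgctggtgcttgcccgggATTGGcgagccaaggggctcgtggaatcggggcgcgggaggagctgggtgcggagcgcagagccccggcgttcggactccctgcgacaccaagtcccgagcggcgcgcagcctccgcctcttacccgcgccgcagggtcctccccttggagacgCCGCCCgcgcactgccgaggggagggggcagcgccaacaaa
Col4a2: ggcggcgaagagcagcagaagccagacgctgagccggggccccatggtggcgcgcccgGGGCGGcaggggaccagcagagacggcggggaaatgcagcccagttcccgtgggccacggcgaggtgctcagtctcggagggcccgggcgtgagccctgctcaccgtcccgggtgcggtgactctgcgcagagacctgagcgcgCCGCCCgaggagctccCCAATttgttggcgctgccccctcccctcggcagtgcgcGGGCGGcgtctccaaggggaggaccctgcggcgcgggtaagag
GGGCGG was found in 35.7% of all 32851 such windows and CCAAT in 37.4%, and in 23 and 10 of the 32 windows of members. Such matches describe letters and not binding.

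The 2 genes kept a narrow ratio while their level varied widely. Col4a1 ran from 15.7 CPM in the mouse 1 liver line to 291 CPM in the mouse 6 liver line, and Col4a2 from 8.88 to 158 CPM in the same lines. The ratio of Col4a1 to Col4a2 TPM stayed between 1.83 and 3.55 over the 16 lines, with a median of 2.34 in tumor and 2.23 in metastasis lines. Without strand in counting, reads from the shared bases could not be assigned, and the strand setting is not given in the sources used here. By stage their log2 fold changes were -0.27 (adjusted p = 0.470, SE 0.24) and -0.10 (adjusted p = 0.814, SE 0.25).

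**Figure D4:**
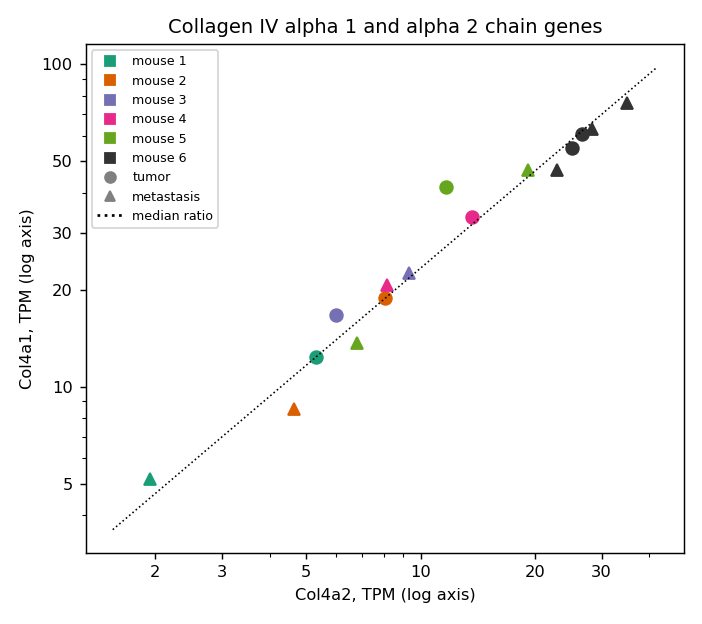
Col4a1 against Col4a2, both in TPM on log axes, in each of the 16 lines. Circles are tumor lines, triangles are metastasis lines, color marks the mouse, and the dotted line is the median ratio. The lines of mouse 6 sit at the top right and the liver line of mouse 1, with 5.19 and 1.93 TPM, at the bottom left.

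Lines of 1 mouse held the highest levels of Col4a1, and lines of another the lowest. Both tumor lines of mouse 6 (248 and 191 CPM of Col4a1) and its 3 metastasis lines (291, 250 and 219 CPM) lay above the lines of all other mice. For Col4a2 the mouse 5 diaphragm line (106 CPM) lay above the mouse 6 tumor line T69b (102 CPM). Mouse 1 was lowest in both stages, with 57.6 CPM of Col4a1 in its tumor line and 15.7 CPM in its metastasis line. In the edgeR test of differences between mice, which called 0.154% of all genes, no member passed; Col4a2 and Col4a1 came nearest (adjusted p = 0.0602 and 0.0607). At an unadjusted p under 0.05 the test held 10 of 29 members, and 17.1% of all genes.

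The other collagen IV chains were low. Col4a5 was at 6.93 to 33.3 CPM in tumor and 5.01 to 25.3 CPM in metastasis lines, while Col4a3 and Col4a4, which join it in the kidney and lung trimer, stayed at or below 0.904 CPM. Col4a6, also a partner of Col4a5, was at or below 1.27 CPM in all lines but 2. The mouse 2 peritoneal line had 7.18 CPM of it and the mouse 5 diaphragm line 4.13 CPM.

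Among the 4 linkers, both heparan sulfate proteoglycans fell and neither nidogen was called. Agrn encodes agrin, which ties laminin to dystroglycan, and had 42.6 TPM on average over the 16 lines, the most of the group. It was at 190, 235 and 314 CPM in the lowest, median and highest tumor line and at 104, 178 and 201 CPM in metastasis lines. Agrn fell by 0.70 on the log2 scale (adjusted p = 0.0130, SE 0.16, edgeR), lower in 6 of 6 mice, and passed in 30 of 33 other settings. With the 2 libraries richest in ribosomal RNA reads left out, its log2 fold change was -0.61 (adjusted p = 0.0579, in a range of 0.000364 to 0.0702).

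The decrease in Agrn was uneven over sites. The 3 peritoneal lines lay close together at 107, 104 and 106 CPM, below the other 6 metastasis lines at 168 to 201 CPM. Fitted site by site, the log2 fold change against tumor lines was -1.25 in peritoneum (SE 0.14) and -0.15 in liver (SE 0.16). The test of equal site effects gave an adjusted p of 1.00 (edgeR), with the unadjusted p under 0.05. Ribosomal RNA reads made up at most 18.5% of each peritoneal library, and their part in the result was not tested. The mouse 5 diaphragm line, with the most such reads, had 195 CPM.

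Hspg2 encodes perlecan, the large proteoglycan that bridges laminin, nidogen and collagen IV. It was at 20.8, 31.1 and 42.9 CPM in the lowest, median and highest tumor line and at 2.29, 18.3 and 28.2 CPM in metastasis lines. The lowest tumor line was T69a, and the line at 2.29 CPM was the mouse 3 peritoneal line. Hspg2 fell by 1.14 on the log2 scale (adjusted p = 0.0444, SE 0.35, edgeR), lower in 6 of 6 mice. It passed in 12 of 33 other settings (adjusted p 0.00457 to 0.116) and not with no mouse term (log2 fold change -0.94, adjusted p = 0.0545). The call was also lost on leaving out any single line of mice 1, 2 and 4, the tumor or lung line of mouse 5, or a mouse 6 line other than T69a (adjusted p 0.0504 to 0.104).

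Both proteoglycan genes lie on chromosome 4, Agrn at chr4:156165290-156197488 on the minus strand and Hspg2 at chr4:137468769-137570630 on the plus strand. Their RefSeq windows (GRCm38.p6) at the outermost Agrn start, chr4:156197439-156197738 on the minus strand, and at the Hspg2 start, chr4:137468553-137468852 on the plus strand, are shown because these 2 members fell and held many GGGCGG runs, in capitals on either strand. Matches may overlap, and there were 12 in the Agrn window and 5 in the Hspg2 window. The other Agrn window held 2, and the Lama5 window and a Dag1 window, of members not called, held 4 each. Lamc1, Lama4 and Fn1, which also fell, had no window, and a link between such runs and the fall was not tested.
Agrn: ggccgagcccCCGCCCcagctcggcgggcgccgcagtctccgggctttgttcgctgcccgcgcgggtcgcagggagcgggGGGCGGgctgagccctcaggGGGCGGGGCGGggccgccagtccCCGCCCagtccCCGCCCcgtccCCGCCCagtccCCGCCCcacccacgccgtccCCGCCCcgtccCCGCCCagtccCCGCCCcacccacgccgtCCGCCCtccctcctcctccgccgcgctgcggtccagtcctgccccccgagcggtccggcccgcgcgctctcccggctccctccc
Hspg2: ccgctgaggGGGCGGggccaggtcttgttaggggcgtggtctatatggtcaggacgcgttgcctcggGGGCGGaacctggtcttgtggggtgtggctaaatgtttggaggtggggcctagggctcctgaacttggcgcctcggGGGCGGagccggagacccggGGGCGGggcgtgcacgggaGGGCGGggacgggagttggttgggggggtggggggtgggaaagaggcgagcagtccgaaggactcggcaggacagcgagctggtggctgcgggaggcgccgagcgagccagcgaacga
Nid1 and Nid2 encode the nidogens, which link laminin to collagen IV. Nid1 had a log2 fold change of 0.22 (adjusted p = 0.666, SE 0.32) and Nid2 of -0.45 (adjusted p = 0.691, SE 0.70). Nid2 was even among tumor lines, at 1.82 to 4.64 CPM, and ran from 0.104 CPM in the mouse 1 liver line to 7.36 CPM in the mouse 5 diaphragm line among metastasis lines. Both liver lines (0.104 and 0.241 CPM), the lung line (0.786 CPM) and the mouse 3 peritoneal line (0.834 CPM) lay below every tumor line.

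The provisional matrix of wounds and stroma was little expressed. Fn1, fibronectin, was at 0.647, 7.07 and 29.3 CPM in the lowest, median and highest tumor line and at 0.100, 3.52 and 5.77 CPM in metastasis lines. The metastasis lines split by mouse: 4 lines, those of mouse 6 and the mouse 3 line, were at or below 0.315 CPM, and the other 5 were at or above 3.52 CPM. Fn1 fell by 2.38 on the log2 scale (adjusted p = 0.0318, SE 0.66, edgeR), lower in 5 of 6 mice. It passed in 16 of 33 other settings (adjusted p 0.000229 to 0.169) and not with no mouse term (log2 fold change -1.70, adjusted p = 0.169). Without the 2 libraries richest in ribosomal RNA reads the log2 fold change was -2.77 (adjusted p = 0.0639). Leaving out any single line of mice 3, 5 and 6 other than T69a also ended the call (adjusted p 0.0521 to 0.0988). Of single lines left out, T69b moved the value most, to -1.64 (adjusted p = 0.0540).

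Tnc, tenascin C, was below the count filter because the metastasis lines and T69a were low, and it was tested once T69a was left out. It had 185 counts over tumor lines and 10 over metastasis lines. Of the tumor lines T69a had 0.0196 CPM, within the metastasis range of 0 to 0.129 CPM, and the other 6 had 0.424 to 0.938 CPM. With a filter on total counts its log2 fold change was -4.38 (adjusted p = 0.00589, SE 0.81, in a range of 0.00066 to 0.0134 over the settings that tested it). The other settings that tested it left out T69a or mouse 6, or summed T69a with T69b. In all of them Tnc was admitted through its tumor lines, so these values are not separate support.

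Dag1, dystroglycan, is the receptor that agrin, perlecan and laminins bind through its sugar chains. It was among the most even members, at 130, 143 and 186 CPM in tumor and 135, 154 and 205 CPM in metastasis lines, with a log2 fold change of 0.10 (95% interval -0.08 to 0.29). Among the enzymes that build its sugars, B3galnt2 fell by 0.67 on the log2 scale (adjusted p = 0.00651, SE 0.12, edgeR).

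Among integrin alpha chains, 6 were tested and Itga6 was called. Itga3 and Itga6 encode the alpha chains of the laminin-binding integrins and had the highest mean TPM, 101.9 and 101.5 over the 16 lines. Itga6 was at 116, 166 and 424 CPM in the lowest, median and highest tumor line and at 135, 414 and 536 CPM in metastasis lines. T69a held the highest tumor value and the other tumor lines reached at most 238 CPM. The peritoneal lines of mouse 2 (135 CPM) and mouse 4 (231 CPM) lay within that range, and the other 7 metastasis lines were at or above 305 CPM. Itga6 rose by 0.83 on the log2 scale (adjusted p = 0.0392, SE 0.25, edgeR), higher in 5 of 6 mice. It passed in 14 of 33 other settings (adjusted p 0.00417 to 0.185). Leaving out any single line of mice 1, 3, 4 and 5, or T69b or the liver or diaphragm line of mouse 6, ended the call (adjusted p 0.0528 to 0.112). The gene lies at chr2:71745616-71858416 on the plus strand.

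Itga3 was at 172, 266 and 386 CPM in tumor and 187, 332 and 684 CPM in metastasis lines, and its log2 fold change was 0.30 (95% interval -0.15 to 0.75). The ratio of Itga3 to Itga6 TPM separated the lines by more than stage. It was 1.37 to 1.93 in 6 tumor lines and 0.355 in T69a, and among metastasis lines it ran from 0.332 in the mouse 6 diaphragm line to 2.18 in the mouse 2 peritoneal line.

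Itga1 and Itga2, the alpha chains of the collagen-binding integrins, were even in tumor lines and scattered in metastasis lines. Itga1 was at 16.6 to 31.3 CPM in tumor lines, and at 0.983 CPM in the mouse 5 lung line and 152 CPM in the mouse 4 peritoneal line, with a log2 fold change of -0.44 (adjusted p = 0.628, SE 0.57). Itga2 was at 77.1 to 197 CPM in tumor lines and had the same lowest and highest metastasis lines, at 8.65 and 172 CPM (log2 fold change -1.05, adjusted p = 0.129, SE 0.46). DESeq2 called Itga2 lower (adjusted p = 0.0451), and its unadjusted edgeR p was under 0.05. Itga5, the alpha chain of the main fibronectin receptor, stayed at or below 2.62 CPM in every line. Itgav, which pairs with Itgb5 and Itgb6, reached at most 97.4 CPM in tumor lines and 96.4 CPM in metastasis lines.

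**Figure D5:**
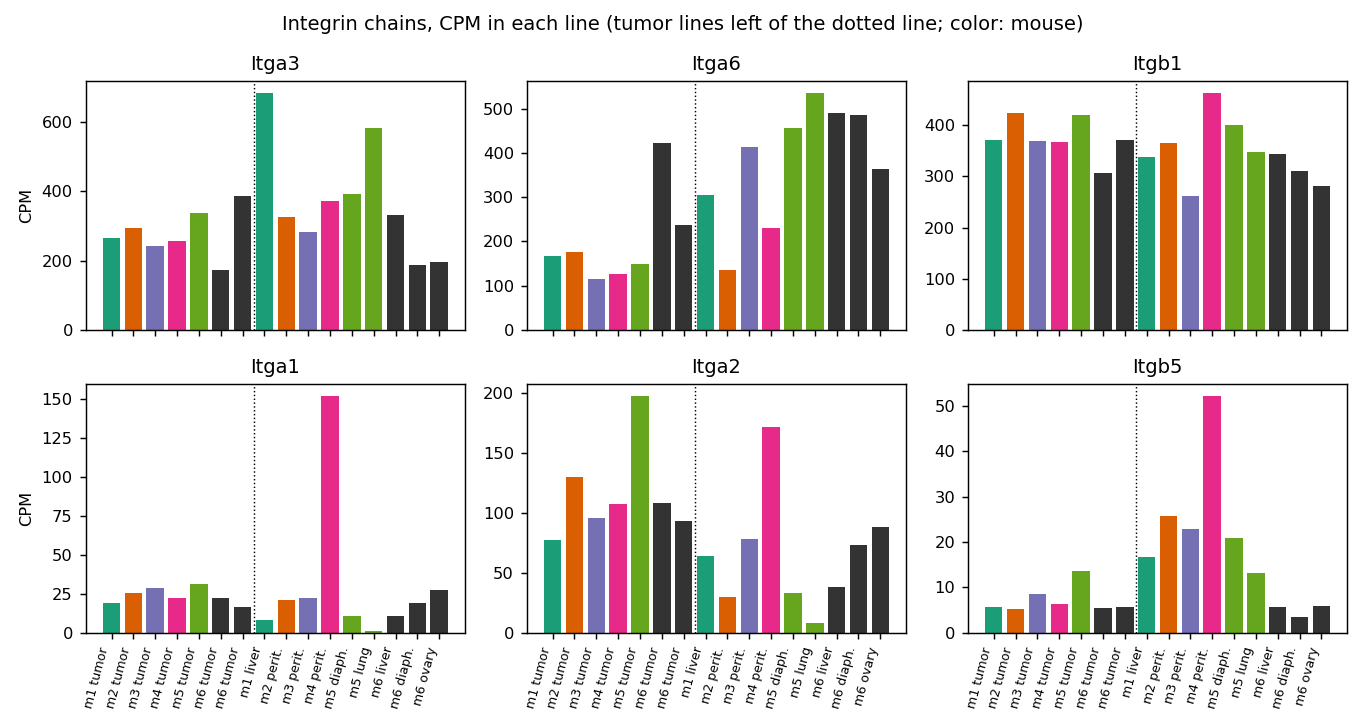
CPM of 6 integrin chains in each of the 16 lines, with tumor lines left of the dotted line and bars colored by mouse. Itgb1 is even across lines, at 262 to 463 CPM, while Itga1 in the mouse 4 peritoneal line (152 CPM) and Itga6 in T69a (424 CPM) stand out.

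No beta chain passed the edgeR test, and at an unadjusted p under 0.05 Itgb5 was the one of 4. DESeq2 also called Itgb5. Itgb1, the partner of Itga1, Itga2, Itga3 and Itga5, made up 72.3% to 85.5% of the beta chain TPM in every line. It was at 306, 371 and 425 CPM in tumor and 262, 344 and 463 CPM in metastasis lines, with a log2 fold change of -0.13 (95% interval -0.32 to 0.06). Itgb4, the hemidesmosome partner of Itga6, had a log2 fold change of 0.11 (95% interval -0.24 to 0.47). The ratio of Itga6 to Itgb4 TPM was 2.71 to 4.84 in 6 tumor lines and 8.34 in T69a, and 4.10 to 9.53 in metastasis lines.

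Itgb5, a chain of a vitronectin receptor, was at 5.19, 5.78 and 13.6 CPM in the lowest, median and highest tumor line and at 3.42, 16.8 and 52.1 CPM in metastasis lines. In mice 1 to 4 each metastasis line (16.8 to 52.1 CPM) lay above all tumor lines, and in mouse 6 the metastasis lines (3.42 to 5.83 CPM) lay beside its tumor lines (5.49 and 5.78 CPM). The log2 fold change was 1.02 (adjusted p = 0.0783, SE 0.37), and 1.62 without mouse 6 (adjusted p = 0.0227, in a range of 0.0177 to 0.249). Itgb6, an epithelial chain that activates latent TGF-beta, had a log2 fold change of -0.28 (adjusted p = 0.282, SE 0.17). Itgb8 stayed at or below 0.218 CPM.

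The edgeR test of the organ of the metastasis called no member and 0.0% of all genes. At an unadjusted p under 0.05 it held 5 members, namely Nid2, Agrn, Col4a5, Itga1 and Itgb5, and 266 genes of all tested (1.71%). For Nid2 the estimates against tumor lines were -3.62 in liver (SE 0.66), -2.50 in lung (SE 0.91) and -0.27 in peritoneum (SE 0.51). For Itga1 the lung estimate was -4.63 (SE 1.15), from 1 line. For Itgb5 the peritoneal estimate was 2.24 (SE 0.43) and the diaphragm estimate -0.03 (SE 0.48). Lung and ovary had 1 line each, and the 3 peritoneal lines were the only metastasis lines of their mice, so site and mouse cannot be told apart there.

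Splice forms were compared as percent of a gene's transcripts. The tail of Itga6 comes in forms A and B, and form A holds an exon of 130 bases at chr2:71853534-71853663 that form B skips. The coding ends of both tails are shown, with the stop codon in capitals, because the lines differed in the share of these forms. They are from GENCODE M21 transcripts on GRCm38, plus strand, at chr2:71853534-71853641 for form A and chr2:71855854-71856015 for form B.
Itga6 form A: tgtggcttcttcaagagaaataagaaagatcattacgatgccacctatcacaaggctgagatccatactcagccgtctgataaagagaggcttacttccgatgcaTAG
Itga6 form B: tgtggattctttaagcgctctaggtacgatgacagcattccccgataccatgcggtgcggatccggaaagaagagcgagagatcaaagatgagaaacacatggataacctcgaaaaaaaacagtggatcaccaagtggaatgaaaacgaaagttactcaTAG
Form A had 37.6% to 50.0% of Itga6 transcripts in tumor lines and 36.7% to 55.5% in metastasis lines, and form B 8.88% to 21.8% and 3.88% to 22.9%. A noncoding Itga6 transcript took most of the remainder. Within mice form A differed by 6.98 percentage points (SD 5.67 over 6 mice, higher in 5 of 6, exact sign-flip p = 0.0625, adjusted p = 0.448) and form B by -5.42 (SD 5.06, exact p = 0.0625, adjusted p = 0.448). Form B was highest in 3 lines of mouse 6, namely T69a (21.8%) and the diaphragm and ovary lines (21.0% and 22.9%). It was lowest in the mouse 4 peritoneal line (3.88%) and the mouse 5 lung line (4.07%).

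Lama3 has a short form and a long form from an earlier start. The long form had 0% to 16.5% of Lama3 transcripts in tumor lines and 0% to 42.9% in metastasis lines. The mouse 1 liver line had 42.9% and the mouse 3 peritoneal line 35.2%, while the 2 lines with the most Lama3, both of mouse 5, had 0% and 2.15%. The within-mouse difference was 14.7 percentage points (exact p = 0.125, adjusted p = 0.448). Of 43 transcripts of 23 members, 2 reached the smallest p that the exact test can give with 6 mice, 1 of Lamb2 and 1 of Col18a1. None passed after adjustment, which that smallest p all but fixed in advance. These transcripts differed by 6.10 (Lamb2) and -6.49 (Col18a1) percentage points. In percent of counts in place of transcripts the differences were 0.69 and -0.50.

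Other genes of the pathway were counted in lists, beside 16.5% of all genes called by stage. Of 20 further matrix ligands 10 were tested, 2 were higher and 1 lower. Npnt, nephronectin, a basement membrane ligand, rose by 1.05 (adjusted p = 0.00964, SE 0.21, passing in 33 of 33 other settings) with no overlap, at 46.8 to 91.8 CPM in tumor and 94.8 to 214 CPM in metastasis lines, where metastasis lay wholly above tumor in 0.36% of all genes. Col7a1, the anchoring fibril collagen, rose by 2.12 (adjusted p = 0.0404, SE 0.63), and Spp1, osteopontin, fell by 1.73 (adjusted p = 0.0257, SE 0.45). Col7a1 lost its call in 18 of 33 other settings and Spp1 in 13. Of 13 further integrin chains 4 were tested, and Itgb7 rose by 2.98 (adjusted p = 0.00497, SE 0.51). It was low, at 0.101 to 0.275 CPM in tumor and 0.401 to 5.07 CPM in metastasis lines. Itgb7 passed the count filter only with its metastasis lines, so the lack of overlap, beside 0.36% of all genes, is not separate support. A filter of 1 CPM in 7 lines left it untested.

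Of 10 hemidesmosome and laminin receptor partners, all were tested, 3 were higher and 3 lower. Bcam, a receptor of Lama5 laminins, fell by 1.80 (adjusted p = 0.00290, SE 0.26) and Sdc4 by 0.45 (adjusted p = 0.0252, SE 0.12). Sdc1, also a syndecan, rose by 0.66 (adjusted p = 0.0109, SE 0.14), and Plec, plectin, the hemidesmosome linker to keratin, by 0.67 (adjusted p = 0.0287, SE 0.18). Bcam passed in all 33 other settings, while the call was lost in 3 for Sdc1, 12 for Plec and 14 for Sdc4. Of 21 genes of the adhesion machinery inside the cell, 2 were higher and 2 lower, a share near that of all genes. Fermt2, kindlin 2, an integrin activator, fell by 2.73 (adjusted p = 0.00786, SE 0.53) and Lims1, PINCH, by 0.88 (adjusted p = 0.0142, SE 0.20). Parvb, a parvin, rose by 2.25 (adjusted p = 0.0321, SE 0.63) and Src, the kinase, by 0.32 (adjusted p = 0.0335, SE 0.09). The calls of Parvb and Src were lost in 19 and 17 of 33 other settings and that of Lims1 in 4, while Fermt2 kept its call in all 33. Without T69b the log2 fold change of Fermt2 was -2.13, and without T69a that of Parvb was 3.09.

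Of 17 collagen folding and crosslinking enzymes 15 were tested, 2 were higher and 4 lower. Pxdn, peroxidasin, which forms the crosslink of collagen IV, fell by 5.17 (adjusted p = 0.00285, SE 0.76) to 160 counts over metastasis lines, beside 5790 over tumor lines. Loxl2, a lysyl oxidase, fell by 2.50 (adjusted p = 0.0112, SE 0.53), and Loxl4 rose by 0.98 (adjusted p = 0.0276, SE 0.26), as did Crtap, of the prolyl hydroxylase complex, by 0.66 (adjusted p = 0.0353, SE 0.19). Crtap lost its call in 17 of 33 other settings, Loxl4 in 13 and Loxl2 in 4, and Pxdn in none. Of 20 matrix proteases and inhibitors 15 were tested and 2 were called, or 13.3%, below the share of all genes. Mmp7, matrilysin, fell by 6.38 (adjusted p = 0.000137, SE 0.56), with metastasis wholly below tumor, as in 0.758% of all genes tested. Timp3, a matrix-bound inhibitor of metalloproteases, fell by 5.19 (adjusted p = 0.00230, SE 0.73). Both passed in all 33 other settings.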

How the data were processed

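Total RNA depleted of ribosomal RNA was sequenced from 16 organoid lines, 7 from tumors and 9 from metastases of 6 mice, per the labels. Per the submitters' processing notes, the authors used FastQC 0.11.8, STAR 2.6.0c and RSEM 1.3.1 with GRCm38.p6, and the strand setting of counting is not given in the sources used here. The deposited gene tables hold expected counts and TPM, per the file headers, and the deposited isoform tables add each isoform's percent share of its gene. RSEM divides reads among similar sequences, so isoform values are estimates.

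Gene identifiers were matched to GENCODE M21, with 55394 found and 93 not. Expected counts were rounded and tested with edgeR 4.0.16 (R 4.3.3): TMM factors, filterByExpr by stage, terms for mouse and stage, the quasi-likelihood test, and Benjamini-Hochberg adjustment over all 15573 genes where calls needed a value under 0.05. Adjusted p values are from this fit unless another tool or an exact test is named. Standard errors were taken from the estimate and its F value, and 95% intervals assume normal errors. Sites were compared by an F test of equal site coefficients and mice through the mouse terms, also with an F test. CPM use TMM-scaled library sizes. Isoform shares were compared within mice by flipping the signs of the 6 differences in all ways (an exact sign-flip test, two-sided), for members with at least 20 counts in every line and transcripts with a mean of at least 10%.

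The members and lists were chosen with earlier results of these data known. Values were given by rule for called members and, per role, for the member with the lowest p and the one with the highest mean TPM. From each further list up to 4 called genes with the lowest p were named, except some that are not reported here. Values of other members, such as Lamb1, Col4a1, Col4a2, Nid2, Itga1 and Itga2, were singled out after they were seen. Promoter windows came from RefSeq (25 of the 34 members matched) and tail sequences from GENCODE transcripts.

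The mouse labels pair the lines. Stage-centred log2 CPM correlated at 0.261 on average between lines of 1 mouse and -0.116 between mice, and at 0.0349 (mouse 3) to 0.252 (mouse 6) between tumor and metastasis lines of 1 mouse. Alternatives were no mouse term, RLE factors, other filters, DESeq2 1.42.0, limma 3.58.1, sums per mouse and stage, libraries rich in ribosomal RNA left out, their share as covariate, the robust option, and each line or mouse left out. For mice 1 to 4, leaving out either line or the mouse is nearly the same fit. The scripts were tested on simulated data.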

Additional observations from a re-analysis of the deposited data

Results flagged for a closer look

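In each member the highest and lowest line of each stage was compared with its nearest neighbour. In 5 of 58 groups the gap was too large a part of the group's log2 range, where chance gives about 2.9. The mouse 4 peritoneal line had 18.3 CPM of Lamb3, the lowest of the metastasis lines, and the next was at 66.3 CPM. The mouse 3 peritoneal line had 2.29 CPM of Hspg2, the lowest of the metastasis lines, and the next was at 11.6 CPM. The mouse 5 tumor line accounted for the other 3, with the highest tumor level of Dag1 (186 CPM, next 149 CPM) and of Itgav (97.4 CPM, next 65.6 CPM) and the lowest of Col4a4 (0.179 CPM, next 0.308 CPM).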

How the results depend on the processing

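The 29 members tested gave 2 higher and 5 lower calls. With no replicate block (no mouse term), 2 were higher and 3 lower. DESeq2 gave 4 higher and 6 lower, adding Col18a1, Itgb5 and Itga2. On log2(TPM + 1) limma gave 1 higher and 3 lower. Sums per mouse and stage gave 1 higher and 4 lower, losing Fn1, Hspg2 and Itga6 and adding Tnc. The 2 libraries richest in ribosomal RNA left out gave 1 higher and 2 lower, and their share as a covariate gave 2 higher, with Lamb1 in place of Itga6, and 3 lower. With each line or mouse left out, higher calls ran from 0 to 4 and lower calls from 2 to 6, while 4.90% to 24.7% of all genes were called. Lamc1 and Lama4 passed in every setting that tested them, and no called member changed sign in any setting run. The most called members were lost without mouse 5, where 0 were higher and 2 lower. Calls over all genes also fell there, to 4.90% from 16.5% in the main fit, and the cause of these losses was not tested. Left out singly, the lines of mice 1, 3 and 4 each left 0 higher, as did those mice, which are nearly the same fits.

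Among members that were not called, some log2 fold changes turned sign. With no replicate block Col4a1 was at 0.20, Col4a2 at 0.31 and Itga1 at 0.36. With log2(TPM + 1) Dag1 was at -0.071, Itgav at -0.069 and Itgb4 at -0.079, and with ribosomal RNA share as a covariate Itgb4 was at -0.000646. With each line or mouse left out, ranges spanned 0 for Lama5 (-0.17 to 0.014), Col4a2 (-0.26 to 0.11), Itga1 (-0.81 to 0.091), Itga5 (-0.11 to 0.80), Itgav (-0.037 to 0.23) and Itgb4 (-0.020 to 0.24). The median of all genes was -0.10 with log2(TPM + 1). A filter of 1 CPM in 7 lines left Lama4, Col4a3, Col4a4 and Itga5 untested.

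Over all genes, DESeq2 called 1871 higher and 2097 lower, log2(TPM + 1) 329 and 855, and the 2 libraries left out 238 and 556, beside 1026 and 1545. No mouse term gave 945 and 1274, sums per mouse and stage 1137 and 1265, and the ribosomal RNA covariate 790 and 1089. Depth limits Lama1, Lama2 and Itgb8, which had at most 26 counts over a group.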

Other observations

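The extremes of the tumor lines were shared unequally. The mouse 5 tumor line was the highest tumor line in 13 of the 29 members tested, among them Lama4, Lamb1, Hspg2, Agrn, Fn1, Itga2 and Itgb5. T69a was the highest in 7, among them Lama3, Lamb2, Lamb3, Col4a1, Col18a1 and Itga6, and the lowest in 8. Among metastasis lines the mouse 5 diaphragm line, with 72.7% of reads in genes linked to ribosomal RNA, was highest in 9 members, and the part of that share in these levels was not tested.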
